A study of Mus musculus with 36 samples.

Results

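The 10 genes of the hyaluronan-based matrix of the brain, including the perineuronal net, described here were found by their symbol in the deposited count table: Acan, Bcan, Ncan, Vcan, Hapln1, Hapln4, Tnr, Tnc, Has2 and Has3. They are 10 of 24940 genes listed. A perineuronal net is a lattice around the cell body and dendrites of certain neurons, above all inhibitory neurons that contain parvalbumin. Hyaluronan synthases extrude hyaluronan chains at the cell membrane, proteoglycans of the lectican family bind the chains, link proteins stabilise that bond, and tenascins cross-link the lecticans. Loss of microglia is known to alter these nets in mouse brain.

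The 36 libraries of polyadenylated RNA came from male mice. MSA mice carried MBP29-hα-syn, human α-synuclein behind a myelin basic protein promoter that is active in oligodendrocytes, and serve as a model of multiple system atrophy. Mice of both genotypes ate AIN-76A chow with PLX5622 at 1200 mg/kg, an inhibitor of the microglial survival receptor CSF1R, or the same chow without it (placebo), which began at 4 weeks of age and lasted 12 weeks for the bulk tissue. Striatum had 2 libraries from MSA mice on PLX5622, 3 from MSA mice on placebo, 2 from control mice on PLX5622 and 2 from control mice on placebo. Corpus callosum had 3 libraries from control mice on placebo and 2 in each other group, and cortex had 3 in each group. Microglia were sorted from brains of 16-week-old mice without a diet arm, with 3 libraries from MSA mice, tagged as homozygous for MBP29, and 3 from control mice, tagged as heterozygous although the protocol names wild-type mice. No label ties a library to an animal: the p-values reflect only how far these libraries spread, and libraries of different regions may share an animal. Where diet or genotype is averaged over regions, the p-value may therefore be too small.

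Libraries held 4.36 to 28.6 M counts assigned to genes. Under 70% of the header total was assigned in 6 of the 30 bulk libraries: MSA striatum PLX5622 replicate 2, MSA corpus callosum PLX5622 replicate 1, control corpus callosum PLX5622 replicate 2 and placebo replicate 3, and control cortex PLX5622 replicate 1 and placebo replicate 3. The 2 control striatum libraries titled PLX5622 carry a no-treatment tag and were used by their title. In CPM, counts scaled to the assigned total of each library, 14 microglia markers summed to 20.6 and 15.0 CPM in this pair, against 602 and 618 CPM in placebo control striatum. Over all regions that sum was 144 to 306 CPM in MSA mice on PLX5622 and 594 to 1126 CPM in MSA mice on placebo, and it was 14.5 to 39.2 CPM in control mice on PLX5622 and 602 to 768 CPM in control mice on placebo. Csf1r, the gene of the inhibited receptor, averaged 24.1 CPM in MSA mice on PLX5622 and 134 CPM in MSA mice on placebo, and 0.411 CPM in control mice on PLX5622 and 88.1 CPM in control mice on placebo. The region labels were checked with markers: 10 genes of striatal projection neurons summed to 7149 to 12540 CPM in striatum, 486 to 2814 CPM in corpus callosum and 349 to 1274 CPM in cortex, and 10 oligodendrocyte genes to 6117 to 14320, 15290 to 31530 and 1547 to 4954 CPM. Corpus callosum libraries also held 3197 to 7099 CPM of 10 genes of cortical glutamatergic neurons, and striatum libraries held 3284 to 5912 CPM. Callosal libraries thus held transcripts of neurons, and the tissue these came from was not tested.

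Lecticans and link proteins lie in pairs in the genome, by the coordinates of the count table (build mm10). Vcan (chr13:89655310-89742512, minus strand) lies 43.477 kb from Hapln1 (chr13:89540636-89611832, plus strand), and Ncan (chr8:70093085-70120844, minus strand) lies 2.222 kb from Hapln4 (chr8:70083529-70090862, plus strand), with 0 genes of the table between the members of either pair. Bcan (chr3:87987531-88000356) and Acan (chr7:79053226-79115099) have the link protein genes Hapln2 and Hapln3 at 21.393 and 1.927 kb. Tnr is at chr1:159523769-159924922, Tnc at chr4:63959785-64047015, Has2 at chr15:56665627-56694546 and Has3 at chr8:106870242-106882902. The RefSeq promoter table (GRCm38.p6) held 7 of the 10 members. The 250 bases before the annotated start are shown for Vcan and its neighbour Hapln1, whose levels went opposite ways between regions, and for Ncan and Tnc, which had the smallest p-values with diet in MSA mice. Capitals mark 3 promoter motifs on either strand: the TATA box, spelled TATAAA here, the GC box, spelled GGGCGG, and the CCAAT box.
Vcan, chr13:89742513-89742762, minus strand: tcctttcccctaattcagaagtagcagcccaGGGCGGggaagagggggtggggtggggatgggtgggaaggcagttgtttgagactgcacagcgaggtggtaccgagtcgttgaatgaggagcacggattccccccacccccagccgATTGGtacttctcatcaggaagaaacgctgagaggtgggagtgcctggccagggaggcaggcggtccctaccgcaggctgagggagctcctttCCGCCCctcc
Hapln1, chr13:89540386-89540635, plus strand: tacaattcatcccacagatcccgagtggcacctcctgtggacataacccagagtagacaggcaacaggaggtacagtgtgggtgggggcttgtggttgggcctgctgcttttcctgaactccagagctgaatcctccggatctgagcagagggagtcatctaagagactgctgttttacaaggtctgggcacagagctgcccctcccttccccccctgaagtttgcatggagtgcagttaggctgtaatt
Ncan, chr8:70120845-70121094, minus strand: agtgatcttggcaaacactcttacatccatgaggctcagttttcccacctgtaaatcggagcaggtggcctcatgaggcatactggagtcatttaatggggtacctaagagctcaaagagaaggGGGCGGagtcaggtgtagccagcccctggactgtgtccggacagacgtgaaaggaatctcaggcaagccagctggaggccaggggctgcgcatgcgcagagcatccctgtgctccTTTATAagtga
Tnc, chr4:64047016-64047265, minus strand: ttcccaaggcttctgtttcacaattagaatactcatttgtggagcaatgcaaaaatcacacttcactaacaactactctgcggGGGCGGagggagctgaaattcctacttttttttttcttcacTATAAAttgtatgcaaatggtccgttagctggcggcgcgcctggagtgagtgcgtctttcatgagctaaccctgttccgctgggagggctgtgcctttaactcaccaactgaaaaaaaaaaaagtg

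The Vcan window held 2 GC boxes and 1 CCAAT box, and the Ncan and Tnc windows each held 1 GC box and 1 TATA box. The Hapln1 window held none of these letters. Among 32851 promoters of this length, 12.4% held the TATA box, 32.7% the GC box and 33.9% the CCAAT box on either strand. CG dinucleotides numbered 10 for Vcan, 2 for Hapln1, 6 for Ncan and 8 for Tnc, against a median of 6 over all promoters. A match describes letters in the window and not a site in use.

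Brevican, the proteoglycan encoded by Bcan and made by glia and neurons, was the most abundant matrix transcript in every region. Levels between genes are compared per transcript length, in the TPM values (length-normalised transcript levels) that the authors deposited. Bcan averaged 164 ± 27.9 TPM in striatum (SD, n = 9), 132 ± 26.6 TPM in corpus callosum (n = 9) and 135 ± 34.5 TPM in cortex (n = 12). It made up a median of 72.1% of the summed lectican TPM in striatum, 76.0% in corpus callosum and 70.6% in cortex. Ncan, which encodes neurocan, followed with 57.0 ± 15.8 TPM in striatum, 38.3 ± 15.4 TPM in corpus callosum and 56.2 ± 22.4 TPM in cortex, and lay below Bcan in every library. Aggrecan, the lectican most tied to the perineuronal net, was scarce at this level: Acan averaged 0.538 ± 0.372 TPM in striatum, 0.638 ± 0.446 TPM in corpus callosum and 0.622 ± 0.313 TPM in cortex, with 3 to 132 counts per library.

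The link proteins, tenascins and hyaluronan synthases covered a wide range. Hapln4 averaged 11.0 ± 7.61 TPM in striatum, 30.2 ± 20.5 TPM in corpus callosum and 49.9 ± 22.2 TPM in cortex, while Hapln1 averaged 5.48 ± 1.06, 6.92 ± 1.42 and 8.35 ± 2.07 TPM in the same regions. Tenascin-R, a matrix protein that oligodendrocytes and some neurons make, exceeded tenascin-C in every library, with a median TPM ratio of Tnr to Tnc of 14.1 in striatum, 8.69 in corpus callosum and 19.3 in cortex. Has3 averaged 1.92 ± 0.581, 1.25 ± 0.403 and 0.853 ± 0.410 TPM in striatum, corpus callosum and cortex. Has2 was the scarcest member, with 0 to 16 counts per bulk library, and it passed the low-count filter only in the fit of all 30 bulk libraries.

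In the order of mean TPM, most neighbours overlapped. The cortical order was Bcan, Ncan, Hapln4, Tnr, Hapln1, Vcan, Tnc, Has3, Acan and Has2, and only Hapln1 and Vcan had ranges that did not overlap. The callosal order was the same, and there Bcan stood apart from Ncan and Vcan from Tnc. In striatum Tnr came before Hapln4 and Has3 before Tnc, and only Bcan from Ncan and Ncan from Tnr did not overlap. Tnr exceeded Hapln4 in 6 of 9 striatal libraries, and Tnc exceeded Has3 in 4 of 12 cortical libraries, so these neighbours did not differ beyond their spread.

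**Figure D1:**
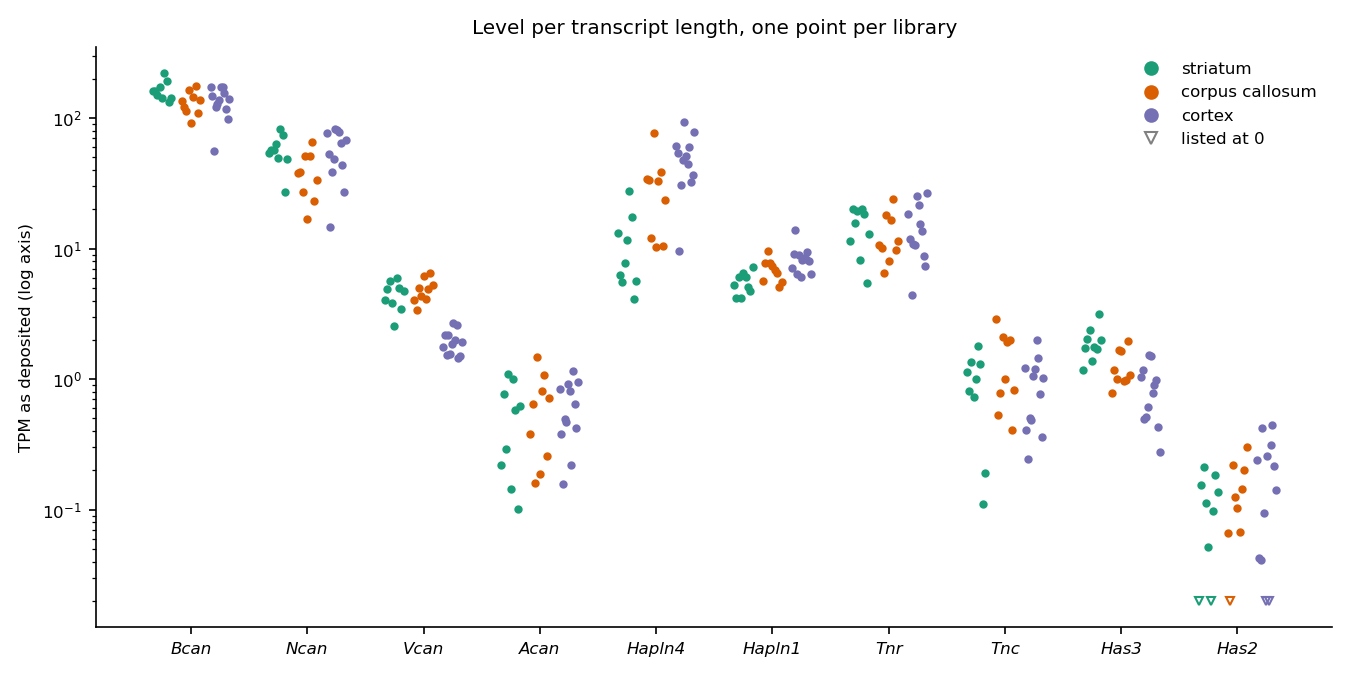
TPM as deposited (log axis) of the 10 matrix genes, with 1 point per library for striatum (9 libraries), corpus callosum (9) and cortex (12); open triangles mark libraries in which Has2 is listed at 0. Bcan is the highest gene in each region, and the striatal points lie toward the low end for Hapln4 and above the cortical ones for nearly all libraries of Vcan.

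Region was the factor with which most matrix genes differed. Vcan was higher in striatum and corpus callosum than in cortex, Has3 was higher in striatum than in the other two regions, and the link protein genes Hapln4 and Hapln1 were lower in striatum than in cortex. Each region comparison gave the genotype and diet groups equal weight and was tested with the quasi-likelihood F test of edgeR, with Benjamini-Hochberg adjustment over 16080 genes and a threshold of 0.05 on the adjusted p. In striatum against cortex 2 of 10 members were higher and 2 lower, where 18.6% of all genes were higher and 20.6% lower. In striatum against corpus callosum 1 member was higher and 2 were lower, where 12.9% of all genes were higher and 17.4% lower. In corpus callosum against cortex 1 member was higher and 2 were lower, where 15.9% of all genes were higher and 14.1% lower. These counts lie near the shares for all genes. In bulk tissue, fewer cells of a type and less RNA per cell cannot be told apart.

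Vcan encodes versican, a lectican that oligodendrocyte precursors make. It had 23.1 to 48.8 CPM in striatum (median 40.5) and 32.3 to 62.2 CPM in corpus callosum (median 43.5), against 13.8 to 24.3 CPM in cortex (median 16.6). Every callosal library lay above every cortical one, and in striatum 1 library, MSA placebo replicate 1, fell into the cortical range. The log2 change was 1.10 ± 0.14 in striatum (SE, edgeR adjusted p = 7.07e-07) and 1.25 ± 0.14 in corpus callosum (adjusted p = 3.05e-07) against cortex. Striatum against corpus callosum gave -0.14 ± 0.15, with a 95% interval of -0.45 to 0.17 (adjusted p = 0.498). The 10 markers of oligodendrocyte precursors, Vcan not among them, summed to 868 to 1160 CPM in striatum and 1154 to 2238 CPM in corpus callosum, against 372 to 783 CPM in cortex; their part in the result was not tested.

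Hapln4, a link protein gene, had the widest regional change of the set. It had 11.0 to 65.1 CPM in striatum (median 18.4) and 28.6 to 194 CPM in corpus callosum (median 86.6), against 30.4 to 218 CPM in cortex (median 125). The ranges overlapped, but 5 of 9 striatal libraries lay below the lowest cortical one. The log2 change was -2.56 ± 0.36 in striatum against cortex (edgeR adjusted p = 5.88e-06) and -1.72 ± 0.36 in striatum against corpus callosum (adjusted p = 0.000977). Corpus callosum against cortex gave -0.84 ± 0.33 and missed the threshold (adjusted p = 0.0591).

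Hapln1, the link protein of aggrecan-rich matrix, had 13.9 to 25.8 CPM in striatum (median 18.7) and 19.8 to 38.4 CPM in corpus callosum (median 25.5), against 20.4 to 62.6 CPM in cortex (median 29.8). It was lower in striatum by a log2 change of -0.73 ± 0.16 (edgeR adjusted p = 0.000563) and in corpus callosum by -0.41 ± 0.15 (adjusted p = 0.0454), both against cortex. The TPM ratio of Hapln4 to Hapln1 had a median of 1.77 in striatum, 4.29 in corpus callosum and 5.64 in cortex. The ratio of Vcan to its neighbour Hapln1 ran the other way, with medians of 0.919, 0.704 and 0.245.

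Has3, one of the hyaluronan synthases, had 4.87 to 13.9 CPM in striatum (median 6.92) and 3.56 to 8.98 CPM in corpus callosum (median 4.88), against 1.12 to 6.00 CPM in cortex (median 3.49). Its log2 change was 1.13 ± 0.22 in striatum against cortex (edgeR adjusted p = 0.000243) and 0.62 ± 0.23 in striatum against corpus callosum (adjusted p = 0.0491). Ncan was lower in corpus callosum than in cortex, at 97.0 to 332 CPM (median 210) against 94.1 to 390 CPM (median 298), with a log2 change of -0.63 ± 0.22 (adjusted p = 0.0298). Tnc was lower in striatum than in corpus callosum, at 0.579 to 8.32 CPM (median 5.20) against 2.24 to 15.7 CPM (median 5.72), with a log2 change of -0.91 ± 0.34 (adjusted p = 0.0441). The groups overlapped for all 3 genes.

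Bcan, Acan, Tnr and Has2 passed in none of these comparisons. The precision behind that differs between them. For Bcan the 95% interval of the log2 change was -0.11 to 0.45 in striatum and -0.39 to 0.18 in corpus callosum against cortex. For Acan it was -1.22 to 0.59 and -0.94 to 0.82, and for Has2 it was -2.22 to 0.56 and -1.81 to 0.80. The median change over the 10 members was -0.21 in striatum and -0.18 in corpus callosum against cortex, beside -0.04 and 0.00 over all genes.

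**Figure D2:**
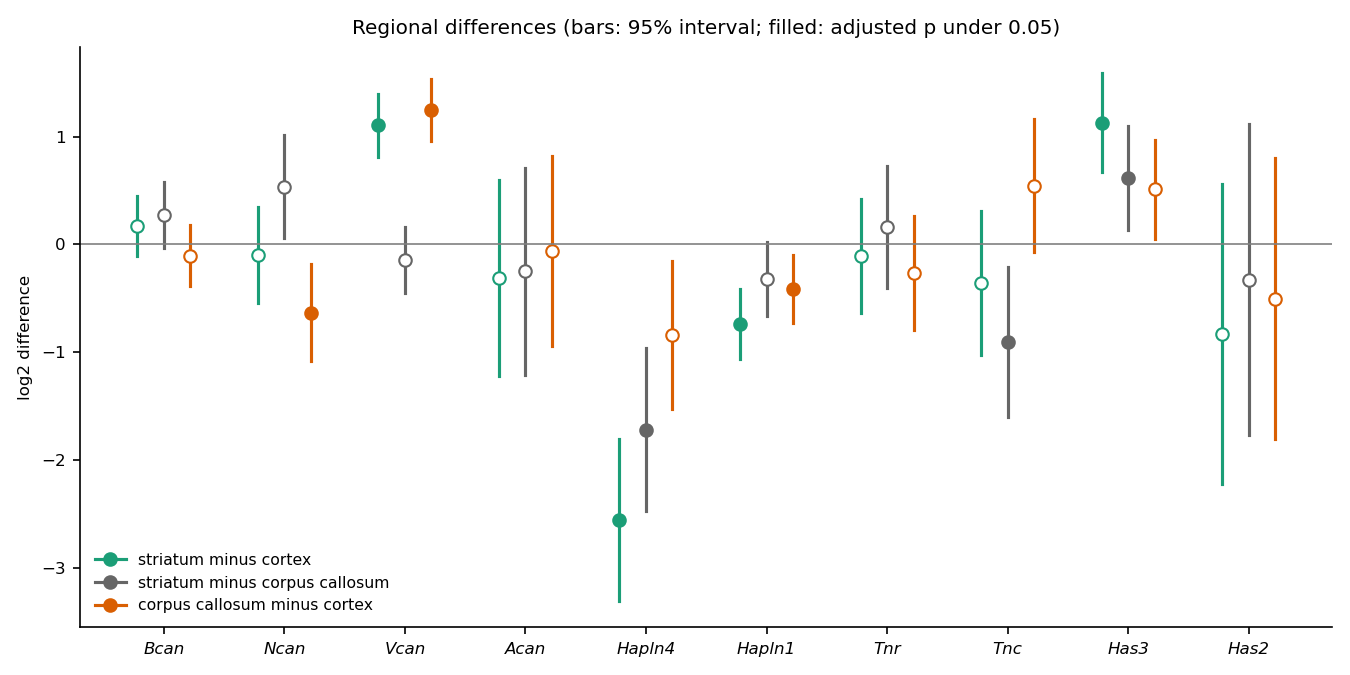
Log2 differences between regions for the 10 matrix genes, with 95% intervals; filled points have an adjusted p under 0.05. Vcan lies at 1.10 and 1.25 in striatum and corpus callosum against cortex, and Hapln4 lies at -2.56 in striatum against cortex.

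The regional calls near the threshold depended on single libraries. Ncan in corpus callosum against cortex missed it without any one of 6 libraries, namely MSA corpus callosum PLX5622 replicate 1, MSA corpus callosum placebo replicate 1, control corpus callosum PLX5622 replicate 2, MSA cortex PLX5622 replicate 3, control cortex PLX5622 replicate 3 and control cortex placebo replicate 1 (log2 change -0.60 to -0.49, adjusted p 0.0543 to 0.0971). When 1 library was left out at a time, Hapln1 in corpus callosum against cortex passed in 8 of 21 fits (log2 change -0.49 to -0.29, largest adjusted p 0.110), Tnc in striatum against corpus callosum in 6 of 18 (-1.03 to -0.60, 0.140) and Has3 there in 4 of 18 (0.53 to 0.73, 0.131). The other 6 calls, which are Vcan, Has3, Hapln4 and Hapln1 in striatum against cortex, Vcan in corpus callosum against cortex and Hapln4 in striatum against corpus callosum, passed in every such fit. In placebo control libraries alone, with 2 or 3 per region, the single call was Vcan in striatum against cortex (1.14, edgeR adjusted p = 0.0192); Vcan in corpus callosum against cortex gave 1.07 (adjusted p = 0.0523) and Hapln4 in striatum against cortex -2.18 (adjusted p = 0.102).

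Some genes around the matrix differed by region. Their counts stand beside the 18.6% of all genes that were higher and 20.6% that were lower in striatum than in cortex, and the 15.9% and 14.1% in corpus callosum, and nothing particular to these lists is read from them. Of 12 other link protein and hyaluronan genes tested, 3 were higher and 2 lower in striatum than in cortex, and 3 were higher and 1 lower in corpus callosum than in cortex. Hapln2, the link protein of nodes of Ranvier, rose by a log2 change of 2.14 ± 0.18 in striatum (edgeR adjusted p = 1.05e-09) and 3.25 ± 0.18 in corpus callosum (adjusted p = 5.31e-12), while Cemip, which takes part in hyaluronan breakdown, changed by -2.01 ± 0.20 (adjusted p = 1.09e-08) and -0.68 ± 0.18 (adjusted p = 0.00604). Of 19 genes of chondroitin sulfate synthesis, 5 were higher and 6 lower in striatum, and 2 were higher and 5 lower in corpus callosum, all against cortex. Among them the sulfotransferase gene Chst15 changed by 1.67 ± 0.18 in striatum (adjusted p = 4.71e-08) and Chst3 by 1.76 ± 0.22 in corpus callosum (adjusted p = 1.98e-06). Of 18 matrix proteases and inhibitors, 2 were higher and 5 lower in striatum, and 6 were higher and 2 lower in corpus callosum. Adamts4, a protease that cuts lecticans, changed by 1.87 ± 0.18 (adjusted p = 9.89e-09) and 2.70 ± 0.18 (adjusted p = 8.75e-11).

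Of 16 matrix receptors and other proteoglycans, 1 was higher and 8 lower in striatum than in cortex, and 1 was higher and 5 lower in corpus callosum. Rtn4r, a receptor for inhibitors of axon growth, changed by -4.68 ± 0.38 in striatum (edgeR adjusted p = 1.74e-09) and -1.52 ± 0.31 in corpus callosum (adjusted p = 0.000816). Of 15 genes of net-bearing and other inhibitory neurons, 2 were higher and 7 lower in striatum, and 0 were higher and 6 lower in corpus callosum. Kcnc2, a potassium channel gene of fast-spiking neurons, changed by -2.84 ± 0.26 in striatum (adjusted p = 6.56e-09). Pvalb, the parvalbumin gene, which was outside the naming rule and chosen after its values were seen, changed by -1.77 ± 0.44 in striatum (adjusted p = 0.00302). Gad2, a gene of GABA synthesis chosen in the same way, was higher in striatum by 1.30 ± 0.20 (adjusted p = 1.12e-05).

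Within a region, none of the 9 members tested passed for diet, for genotype or for their interaction. For PLX5622 against placebo in MSA mice this stands beside 0.0740% of genes that passed in striatum, 0.0693% in corpus callosum and 0.0548% in cortex. In control mice 0.336, 0.460 and 0.486% of genes passed. For MSA against control mice the shares on PLX5622 were 0.222, 0.195 and 0.151%, and on placebo they were 0.0336, 0.321 and 0.0%. For the difference of the diet effect between genotypes they were 0.0874, 0.264 and 0.0959%. So few calls over 14600 to 15881 genes do not show whether changes were few or the tests could pick out only large ones. The unadjusted p was under 0.05 for 3 members with diet in MSA corpus callosum (Ncan, Tnr, Tnc) and 4 in MSA striatum (Ncan, Hapln4, Tnc, Has3), where 8.48% and 13.8% of all genes had one. It was under 0.05 for 0 members with diet in control mice in any region. It was also under 0.05 for Tnc with genotype on placebo in cortex (3.52% of all genes) and on PLX5622 in striatum (11.0%), for Tnr with genotype on placebo (8.53%) and with the interaction (4.70%) in corpus callosum, for Hapln4 with genotype on placebo in striatum (3.75%), and for Ncan, Hapln4 and Tnc with the interaction in striatum (5.00%). DESeq2 called 2 members with diet in MSA striatum (Tnc, Hapln4) and 1 with genotype on PLX5622 in striatum (Tnc).

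**Figure D3:**
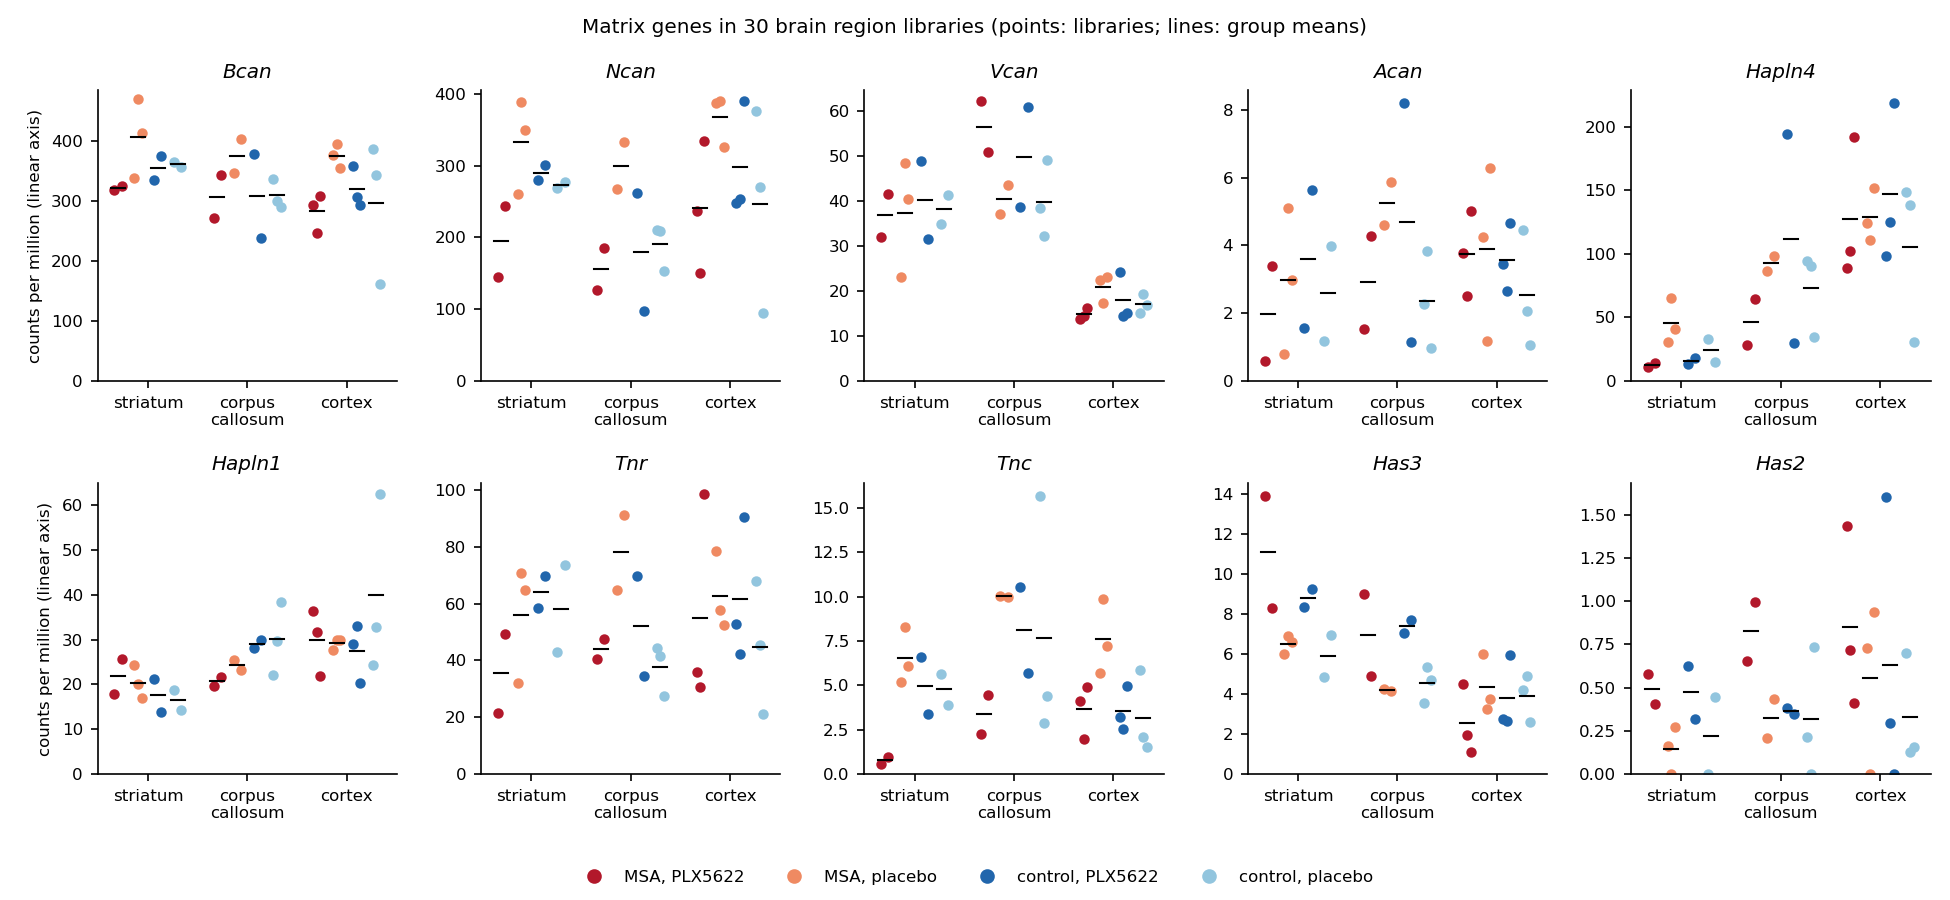
CPM of the matrix genes in each bulk library (linear axes), with MSA PLX5622, MSA placebo, control PLX5622 and control placebo from left to right in striatum, corpus callosum and cortex; short lines are group means. Tnc is at 0.579 and 0.950 CPM in MSA striatum on PLX5622, against 5.20 to 8.32 CPM in MSA striatum on placebo.

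Tenascin-C in MSA mice showed the clearest difference with diet. Tnc encodes a matrix glycoprotein that astrocytes and progenitor cells make. In MSA striatum Tnc had 0.579 and 0.950 CPM on PLX5622, against 5.20, 8.32 and 6.08 CPM on placebo. In MSA corpus callosum it had 2.24 and 4.48 CPM on PLX5622, against 10.1 and 10.0 CPM on placebo. In MSA cortex it had 4.13, 1.97 and 4.90 CPM on PLX5622, against 5.70, 9.88 and 7.24 CPM on placebo. The PLX5622 libraries lay below the placebo libraries in each region. These values rest on 3 to 48 counts per library on PLX5622 and 32 to 288 on placebo. The regional log2 change was -3.01 ± 0.55 in striatum (edgeR adjusted p = 0.0721), -1.70 ± 0.75 in corpus callosum (adjusted p = 0.582) and -1.08 ± 0.54 in cortex (adjusted p = 0.921).

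Averaged over the 3 regions, a comparison added after the regional results were seen, Tnc fell in MSA mice on PLX5622. It averaged 2.75 ± 1.75 CPM on PLX5622 (SD, n = 7) and 7.81 ± 2.04 CPM on placebo (n = 8), a log2 change of -1.93 ± 0.39 with a 95% interval of -2.73 to -1.12 (edgeR adjusted p = 0.00907). It was the 1 member of 10 that passed, where 2.31% of all genes passed in either direction and 1.63% were lower. Here n counts libraries, and those of different regions may come from the same animals, so the p-value may be too small. All 7 MSA libraries on PLX5622 lay below all 8 on placebo, which 0.371% of genes with a mean of at least 1 CPM did. The call was lost without MSA corpus callosum PLX5622 replicate 1 (-1.77, adjusted p = 0.0531) and without MSA striatum PLX5622 replicate 2 (-1.84, adjusted p = 0.0554). Both are libraries with under 70% assigned, and without all such libraries, which leaves 1 MSA library on PLX5622 in striatum and 1 in corpus callosum, the change was -1.68 (adjusted p = 0.0637). With the assigned share as a covariate, also added after seeing the data, it was -1.69 (adjusted p = 0.00696).

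In control mice the same averaged comparison gave 0.13 ± 0.36 for Tnc, with a 95% interval of -0.60 to 0.87 (edgeR adjusted p = 1). Tnc had 6.57 and 3.40 CPM in control striatum on PLX5622, against 5.66 and 3.91 CPM on placebo. In control corpus callosum it had 10.6 and 5.72 CPM on PLX5622, against 15.7, 2.87 and 4.41 CPM on placebo. In control cortex it had 3.21, 2.52 and 4.94 CPM on PLX5622, against 5.86, 2.07 and 1.54 CPM on placebo. The groups overlapped in each region. The diet effect in MSA mice minus that in control mice was -2.06 ± 0.53 and missed the threshold (adjusted p = 0.107), so the effect was not shown to differ between genotypes. Without the control striatum PLX5622 libraries of conflicting tag, and so averaged over cortex and corpus callosum alone, it was -1.52 (adjusted p = 0.590).

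Choroid plexus markers were lower on PLX5622 in MSA corpus callosum, as Tnc was. In control corpus callosum the markers were higher on PLX5622, while the Tnc groups overlapped. The part of these markers in the result was not tested. The 10 choroid plexus genes summed to 411 and 465 CPM in MSA corpus callosum on PLX5622, against 8285 and 3220 CPM on placebo. In control corpus callosum these genes summed to 1510 and 1430 CPM on PLX5622, against 255, 285 and 350 CPM on placebo. In control striatum and in control cortex their ranges overlapped between diets. In MSA striatum they summed to 529 and 43.0 CPM on PLX5622, against 68.9, 457 and 3910 CPM on placebo, and in MSA cortex to 58.2, 137 and 111 CPM, against 65.8, 44.5 and 257 CPM. The 10 astrocyte genes summed to 6387 to 8215 CPM in the MSA libraries on PLX5622 and to 5341 to 9550 CPM in those on placebo, so the ranges overlapped. Averaged over regions in MSA mice, 1 of 10 choroid plexus genes passed as lower and 1 of 10 astrocyte genes as higher. The microglia sum was lower on PLX5622 in both genotypes, as given above. In sorted microglia Tnc had 1 to 5 counts per library.

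The other members went unevenly with diet. In MSA mice, averaged over regions, 8 of 10 members had a negative log2 change on PLX5622, with a median of -0.45 beside -0.02 over all genes. Ncan had -0.82 ± 0.26 (edgeR adjusted p = 0.0930) and Hapln4 -0.99 ± 0.40 (adjusted p = 0.175). Bcan had -0.39 ± 0.16 (adjusted p = 0.187) and Tnr -0.59 ± 0.30 (adjusted p = 0.266), and none of these passed. With the assigned share as a covariate, Ncan had -0.56 (edgeR adjusted p = 0.0634), Hapln4 -0.60 (adjusted p = 0.231) and Bcan -0.27 (adjusted p = 0.331). In MSA corpus callosum alone, that covariate gave -0.39 for Ncan and -0.40 for Tnr, against -1.05 and -0.94 without it. In control mice 9 of 10 members had a positive change, with a median of 0.19 beside 0.02 over all genes and a range of -0.15 to 0.70, and 0 passed where 1.38% of all genes did (0 with an unadjusted p under 0.05, 0 by DESeq2). The difference between genotypes passed for 0 members, where 0.361% of all genes passed; 4 had an unadjusted p under 0.05, where 12.7% of all genes did, and DESeq2 called 1, Tnc. MSA minus control, it was -0.93 ± 0.36 for Ncan (adjusted p = 0.328), -0.97 ± 0.43 for Tnr (adjusted p = 0.376) and -1.19 ± 0.55 for Hapln4 (adjusted p = 0.389). The Hapln4 value rested in part on 1 library, control corpus callosum PLX5622 replicate 1, without which it was -0.52 (edgeR adjusted p = 0.787).

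**Figure D4:**
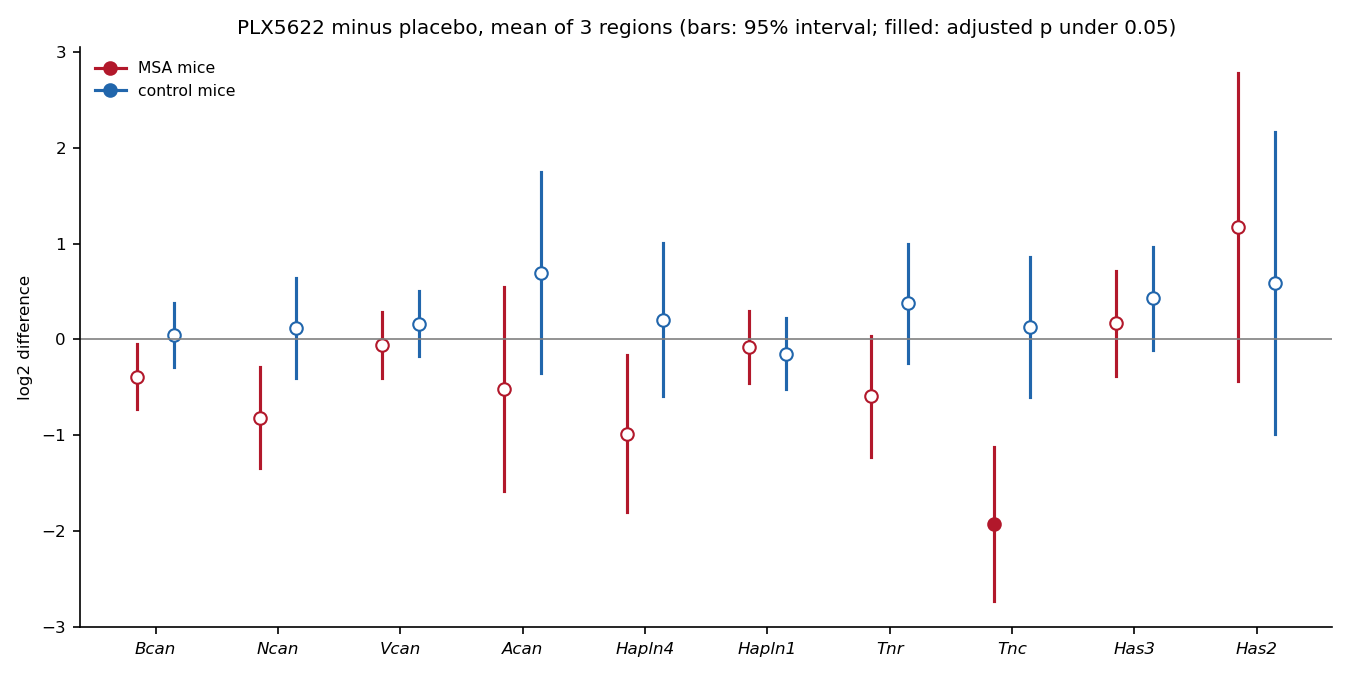
Log2 difference of PLX5622 minus placebo, averaged over 3 regions, for the 10 matrix genes in MSA mice and in control mice, with 95% intervals; the filled point has an adjusted p under 0.05. Tnc in MSA mice lies at -1.93, against 0.13 in control mice.

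Neurocan and Hapln4 illustrate the spread behind these values. Ncan had 145 and 244 CPM in MSA striatum on PLX5622, against 261, 389 and 349 CPM on placebo. In MSA corpus callosum it had 127 and 185 CPM on PLX5622, against 267 and 332 CPM on placebo, and in MSA cortex 237, 151 and 334 CPM, against 387, 390 and 325 CPM. The groups did not overlap in striatum and corpus callosum and overlapped in cortex. Hapln4 had 11.0 and 14.2 CPM in MSA striatum on PLX5622, against 30.4, 65.1 and 40.9 CPM on placebo, a log2 change of -1.82 ± 0.40 (edgeR adjusted p = 0.128), and 13.8 and 18.4 CPM in control striatum on PLX5622, against 33.1 and 15.2 CPM on placebo.

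Separation of the small groups was common among all genes. In MSA corpus callosum 7 of 9 members lay lower on PLX5622 than on placebo without overlap (Acan, Bcan, Ncan, Hapln1, Hapln4, Tnr, Tnc) and 2 lay higher (Vcan, Has3), where 19.3% and 31.4% of all genes did so. Marker sums of neurons and oligodendrocytes separated the same libraries. Cortical glutamatergic neuron genes summed to 3197 and 3435 CPM in MSA corpus callosum on PLX5622, against 5422 and 7099 CPM on placebo. Pan-neuronal genes summed to 3775 and 3741 CPM on PLX5622, against 4784 and 4591 CPM on placebo, and oligodendrocyte genes to 22820 and 31070 CPM, against 20830 and 15290 CPM. Their part in these separations was not tested. In MSA striatum 4 lay lower (Bcan, Ncan, Hapln4, Tnc) and 1 higher (Has3), where 14.2% and 12.5% did; pan-neuronal genes summed there to 2950 and 4186 CPM on PLX5622, against 4735, 4444 and 4425 CPM on placebo, and their part was not tested. In MSA cortex 3 lay lower (Bcan, Vcan, Tnc), where 6.69% did. In control striatum 2 lay higher on PLX5622 (Ncan, Has3), where 9.96% did, and in control corpus callosum 1 (Has3), where 6.88% did. Over the regions together 0 members lay lower in control mice on PLX5622, where 0.884% of genes did. Members measured in one set of libraries are not independent of each other.

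Genotype moved no matrix gene past the threshold. Averaged over regions and diets, MSA against control mice gave log2 changes of -0.32 to 0.21 and 0 calls of 10 members, where 1.49% of all genes passed (0 with an unadjusted p under 0.05, 0 by DESeq2; smallest edgeR adjusted p 0.883). For Bcan the 95% interval was -0.19 to 0.28 and for Acan it was -0.70 to 0.80. On placebo, 4 members lay higher in MSA than in control corpus callosum without overlap (Acan, Bcan, Ncan, Tnr), where 17.3% of genes did. Tnr had 64.8 and 91.4 CPM in MSA corpus callosum on placebo, against 44.4, 41.7 and 27.4 CPM in control corpus callosum on placebo, a log2 change of 1.06 ± 0.34 (adjusted p = 0.389). On PLX5622, 2 members lay lower in MSA than in control corpus callosum (Hapln1, Tnc), where 7.69% of genes did, and 4 lay lower in MSA than in control striatum (Bcan, Ncan, Tnr, Tnc), where 20.8% did. Averaged over regions and genotypes, PLX5622 against placebo also called 0 of 10 members, where 2.15% of all genes passed; Tnc had the 1 unadjusted p under 0.05 (-0.90 ± 0.26, adjusted p = 0.0873), and DESeq2 called it.

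Around the matrix, few genes of the same pathways moved with diet. In control mice, averaged over regions, 1 of 18 proteases and inhibitors was lower and 0 higher, where 1.35% of all genes were lower. That gene was Ctss, the cathepsin S gene of microglia, at a mean of 0.424 CPM on PLX5622 and 59.5 CPM on placebo (log2 change -7.56 ± 0.45, edgeR adjusted p = 3.7e-11). In the lists of link protein and hyaluronan, chondroitin sulfate, receptor and net-neuron genes 0 passed in control mice. In MSA mice, where 1.63% of all genes were lower and 0.678% higher, 3 of 18 proteases were lower: Ctss (-1.80 ± 0.29, adjusted p = 0.000913), the gelatinase gene Mmp2 (-4.06 ± 0.55, adjusted p = 0.000129) and Mmp14, whose product activates that gelatinase (-0.62 ± 0.16, adjusted p = 0.0342). Mmp2 averaged 1.58 CPM on PLX5622 and 5.94 CPM on placebo. The log2 change of Mmp2 averages log2 differences over regions, and it is not read as a fall of that size in mean CPM. Of 12 link protein and hyaluronan genes 1 was higher in MSA mice on PLX5622, Hapln2, at 54.1 CPM on PLX5622 and 21.5 CPM on placebo (0.99 ± 0.22, adjusted p = 0.0156). Of 16 receptors 1 was lower (Rtn4r, -1.59 ± 0.38, adjusted p = 0.0296), of 15 net-neuron genes 1 was lower (Kcnc2, -1.14 ± 0.28, adjusted p = 0.0335), and of 19 chondroitin sulfate genes 0 passed.

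In bulk tissue averaged over regions and diets, genotype calls in those lists were Hapln2, Cd44 and Ctss. In this comparison 1.16% of all genes were higher in MSA mice and 0.336% were lower. Hapln2 averaged 36.7 CPM in MSA mice and 108 CPM in control mice, a log2 change of -1.68 ± 0.15 over regions and diets (edgeR adjusted p = 7.32e-08). Cd44, which encodes a cell surface receptor of hyaluronan, averaged 10.2 CPM in MSA mice and 4.96 CPM in control mice (1.00 ± 0.15, adjusted p = 0.000226). Bcan, which lies beside Hapln2 on the chromosome, gave 0.05 ± 0.11 in the same comparison (adjusted p = 0.985). Ctss averaged 54.0 CPM in MSA mice and 31.9 CPM in control mice (3.38 ± 0.27, adjusted p = 1.57e-08). That change averages log2 differences over both diets, and Ctss was very low in control mice on PLX5622, as given above. It is not read as a rise of that size on placebo. Microglia markers on PLX5622 summed to 144 to 306 CPM in MSA mice and 14.5 to 39.2 CPM in control mice, and their part was not tested. In sorted microglia, where 0.423% of all genes tested were higher and 0.186% lower in MSA mice, 4 genes of these lists passed. Cspg4, which encodes the proteoglycan NG2, averaged 10.5 ± 0.582 CPM in MSA microglia and 0.381 ± 0.127 CPM in control microglia (SD, n = 3 each; log2 change 4.64 ± 0.29, edgeR adjusted p = 3.03e-05). Xylt1, an enzyme gene that starts chondroitin sulfate chains, averaged 5.27 ± 0.731 CPM in MSA microglia and 1.48 ± 0.208 CPM in control microglia (1.81 ± 0.28, adjusted p = 0.0158). Cd44 averaged 10.9 ± 2.77 and 4.27 ± 0.215 CPM in the same groups (1.31 ± 0.22, adjusted p = 0.0266), and Mmp2 111 ± 18.1 and 173.5 ± 14.0 CPM (-0.69 ± 0.11, adjusted p = 0.0284). The groups did not overlap for these 4 genes, which were chosen by their adjusted p.

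In the fit of all bulk libraries, the share of counts assigned to genes moved with most matrix genes. Within groups, per 10 percentage points more assigned, the log2 CPM of Hapln4 was higher by 0.94 (edgeR adjusted p = 3.97e-05), of Acan by 0.92 (adjusted p = 0.0103), of Ncan by 0.62 (adjusted p = 2.15e-05), of Tnc by 0.61 (adjusted p = 0.0174), of Tnr by 0.57 (adjusted p = 0.00365) and of Bcan by 0.26 (adjusted p = 0.016). Hapln1, Vcan, Has3 and Has2 did not pass, with slopes of -0.22, -0.18, 0.00 and -0.42. Of all 16080 genes 6436 passed in the same fit. In fits of 1 region, Acan, Bcan, Ncan, Hapln4 and Tnr passed in corpus callosum, where 3298 of 15881 genes did. In cortex Ncan, Hapln4 and, with a negative slope, Hapln1 passed, where 4048 of 14600 genes did. In striatum 0 of 14872 genes passed. In MSA mice the assigned share was 65.5 and 74.6% in striatum on PLX5622, against 74.3, 75.7 and 75.5% on placebo. In MSA corpus callosum it was 59.6 and 73.9% on PLX5622, against 76.4 and 76.6% on placebo. With the share as a covariate, Ncan in corpus callosum against cortex was -0.29 (adjusted p = 0.122), while Hapln4 in striatum against cortex was -2.26 (adjusted p = 9.41e-09).

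**Figure D5:**
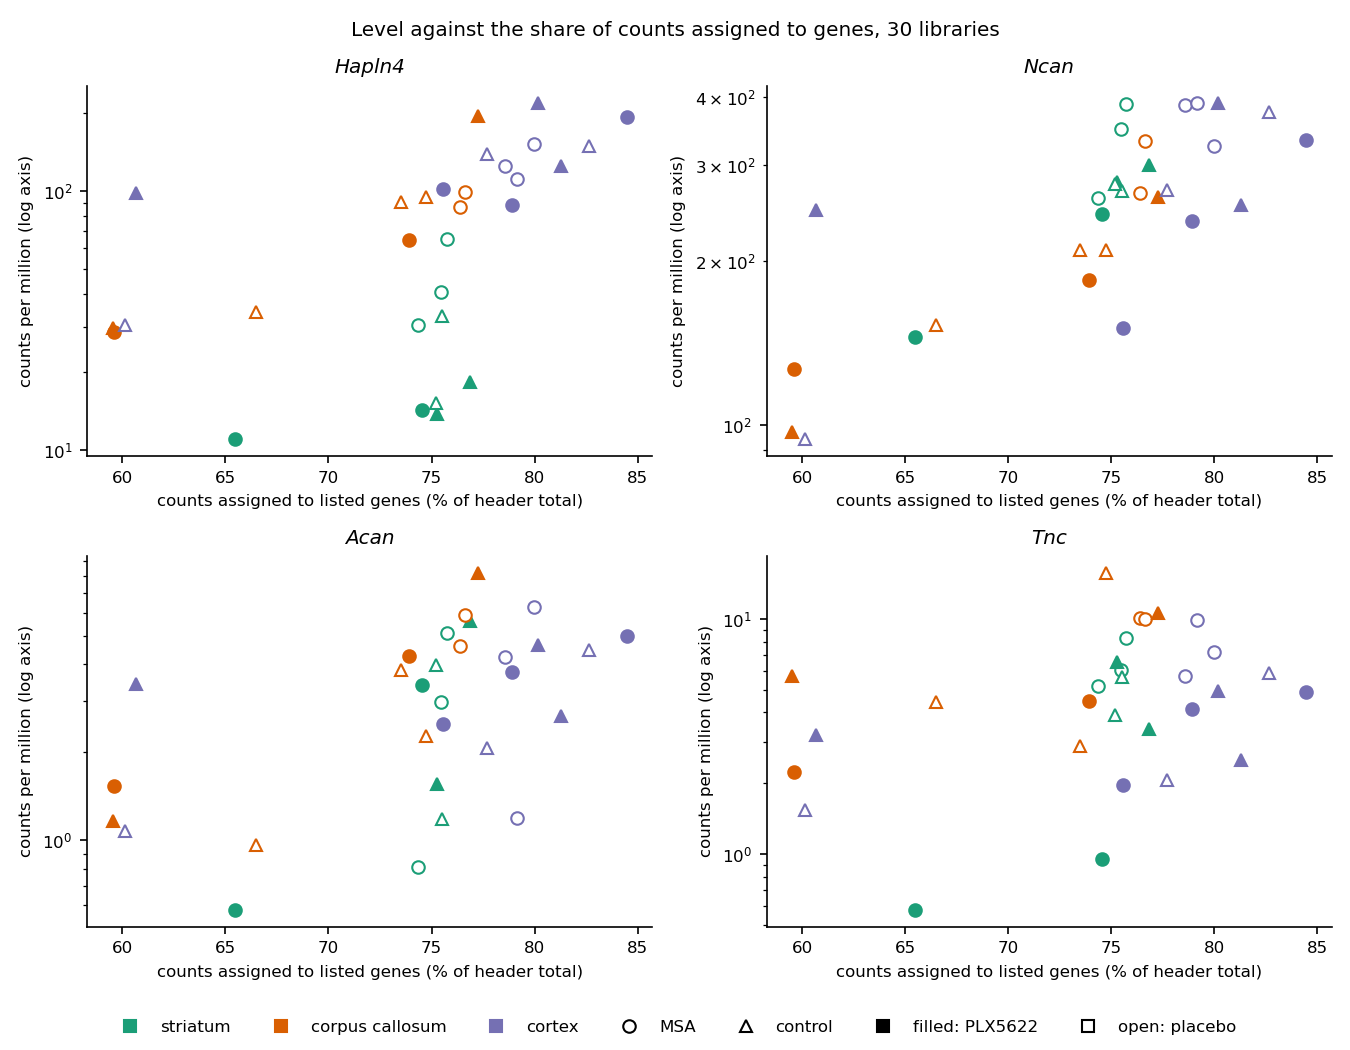
CPM of Hapln4, Ncan, Acan and Tnc in each bulk library (log axes) against the percentage of the header total assigned to genes; colours are regions, circles MSA and triangles control mice, filled PLX5622 and open placebo. The 6 libraries under 70% lie at the left of each panel.

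Sorted microglia gave almost no reads of these genes. None of the 10 members passed the low-count filter there, and over the 6 libraries Has3 had 51 counts, Ncan 40, Vcan 37, Bcan 33, Tnc 18, Hapln1 13, Hapln4 10, Acan 9, Tnr 4 and Has2 3. Bcan had 1, 8 and 3 counts in MSA microglia and 14, 4 and 3 in control microglia. Mean Bcan was 0.871 CPM in control microglia and 297 CPM in placebo control cortex, and mean Has3 was 0.843 CPM and 3.91 CPM in the same groups. At 5.95 to 12.1 M counts per library, no member was tested between genotypes in microglia. Has3 had 1.38, 1.02 and 1.34 CPM in MSA microglia and 0.804, 0.734 and 0.991 CPM in control microglia. These values rest on 6 to 12 counts per library.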

How the data were processed

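Polyadenylated RNA of 30 bulk libraries and 6 microglia libraries was analysed. Build mm10 and the tools STAR, HOMER and DESeq2 come from the submitters' processing notes. Their versions and whether counting used strand are not stated there, and reads of antisense genes cannot be told apart. The count table that the authors deposited holds raw reads per gene as whole numbers, and per the file headers the total of each library. The TPM values deposited by the authors were used only for levels between genes; the listed rows sum to 453451 to 559022 per library.

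Low-count genes were removed by filterByExpr at a minimum count of 10. TMM factors set the scale, and edgeR 4.0.16 under R 4.3.3 gave 2-sided robust quasi-likelihood tests, adjusted over all genes tested. Each region was fitted with its 4 groups; region and averaged comparisons used all 30 bulk libraries in 12 groups. CPM is counts over assigned counts, with SD over libraries. Alternatives were RLE size factors, no filter, DESeq2 1.42.0, a replicate block, 2 groups alone, placebo controls alone, each library left out, and libraries under 70% assigned or of conflicting tag left out. Assigned share as a covariate and diet averaged within a genotype were added after seeing the data. Scripts were tested on simulated data.

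The 10 members are always named. From each of the pathway lists up to 4 genes of smallest p past the threshold could be named, plus Csf1r, Cx3cr1, P2ry12 and Tmem119 as a check of the diet and the 3 genes closest to each member. The members and lists were chosen with earlier results of these data known, and 1 list gene is not in the table. Promoters came from RefSeq.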

Additional observations from a re-analysis of the deposited data

Results flagged for a closer look

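Diet went opposite ways between groups for Ncan in striatum and for Vcan in MSA mice, with every PLX5622 library on one side of the placebo libraries. Such separation was common among genes with a mean of at least 1 CPM. In control striatum 9.96% lay higher on PLX5622, and in MSA striatum 14.2% lay lower. In MSA corpus callosum 31.4% lay higher, and in MSA cortex 6.69% lay lower. The control striatum PLX5622 libraries are those that carry a no-treatment tag. The mean CPM ratio of PLX5622 to placebo for Ncan was 0.585 in MSA striatum and 1.06 in control striatum. The difference was tested as an interaction and did not pass (log2 -0.87 ± 0.37, edgeR adjusted p = 0.802, unadjusted p = 0.0386). It was -0.38 with the assigned share as a covariate (adjusted p = 1) and -0.55 without libraries under 70% assigned (adjusted p = 0.932), which leaves 1 MSA striatum library on PLX5622. For Vcan that ratio was 1.40 in MSA corpus callosum (62.2 and 50.8 CPM on PLX5622, against 37.1 and 43.5 CPM on placebo) and 0.708 in MSA cortex (13.8, 14.5 and 16.2 CPM on PLX5622, against 22.5, 17.4 and 23.0 CPM on placebo). The difference between these regions was not tested.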

How the results depend on the processing

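Of the counts of members past the threshold, 391 recomputed values stayed within 1.5 times the main count and 40 did not. Most values that stayed were from comparisons without a call in the main fit. Among comparisons with calls, 11 of 26 values moved in striatum against corpus callosum and 5 of 29 in corpus callosum against cortex. In diet in MSA mice over regions 4 of 22 moved, and in striatum against cortex 1 of 29. Leaving out 1 library at a time gave 4 members throughout for striatum against cortex, 1 to 4 for corpus callosum against cortex, 1 to 3 for striatum against corpus callosum, 0 to 3 for diet in MSA striatum, and 0 to 1 for the interaction in corpus callosum, for diet over regions and genotypes, for diet in MSA mice over regions and for the interaction over regions. In the other comparisons it gave 0. DESeq2 called 2 members for diet in MSA striatum (Tnc, Hapln4), 2 for diet in MSA mice over regions (Tnc, Ncan), and 1 each (Tnc) for MSA against control striatum on PLX5622, diet over regions and genotypes, and the interaction over regions. Without a low-count filter diet in MSA striatum called 1 (Tnc). Without libraries under 70% assigned, corpus callosum called 1 each for diet in control mice, for genotype on PLX5622 and for the interaction, and diet in MSA mice over regions called 0. That setting, like leaving out 1 of 2 libraries, leaves arms of 1 library (MSA and control corpus callosum and MSA striatum on PLX5622), assumed to vary like the other groups. With 2 groups alone, genotype on placebo in corpus callosum called 1 (Tnr, 1.06, edgeR adjusted p = 0.0428). Without the control striatum PLX5622 libraries, diet over regions and genotypes called 1 (Tnc, averaged without control striatum) and striatum against corpus callosum 1 (averaged without control mice on PLX5622). In placebo control libraries alone, corpus callosum against cortex called 0, striatum against cortex 1 and striatum against corpus callosum 0. The number of all genes called for diet in MSA striatum was 11, against 268 by DESeq2, 1349 with the replicate block and 0 to 824 without 1 library; for diet in MSA mice over regions it was 371, against 805 by DESeq2 and 125 to 495 without 1 library. The cause was not tested for any of these changes.

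Replicate numbers were not taken to pair the libraries in the main fits, because not every pair passed 0.1. That rule cannot exclude that libraries of different regions share animals. Pairs within a region differ in genotype or diet, so they cannot come from 1 animal. Deviations of same-numbered libraries correlated at -0.53 to 0.42 within a region (9 of 38 pairs over 0.1). Across regions, within a genotype and diet, they correlated at -0.36 to 0.44 (12 of 25 over 0.1, median 0.0957), against 6 of 49 pairs of unlike number (median -0.0654), and the 3 cortex and corpus callosum pairs of control placebo mice reached 0.34, 0.17 and 0.44. With the replicate number as a block, diet in MSA striatum called 2 members (Tnc, Ncan) and genotype on PLX5622 in striatum 3; with the block across regions, corpus callosum against cortex called 5 (also Hapln4, -0.78, edgeR adjusted p = 0.0473, and Has3, 0.65, adjusted p = 0.0239), and striatum against corpus callosum also called Ncan (0.53, adjusted p = 0.0449). Depth limited Acan, Tnc, Has3 and Has2 most, with as few as 3, 3, 11 and 0 counts in a bulk library.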

Other observations

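Within groups the members varied unequally. The SD of log2 CPM between libraries of a group was 1.05 for Acan, more than for 95.1% of genes, and 0.84 for Hapln4, against 0.32 for Vcan, 0.31 for Bcan and a median of 0.43 over all genes.

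Over the 12 bulk group means of log2 CPM, each centred on its own mean, the gene most like Bcan among 12363 was Ncln (root mean square difference 0.051), followed by Vwa8 and Uggt1. Ncan was closest to Astn1 (0.11), Spock2 and Uba1. Vcan was closest to E130308A19Rik (0.11), Abca2 and Smad7, and its neighbour Hapln1 to Sept3 (0.10), Fchsd1 and Rell2. Hapln4 was closest to Kcnk12 (0.23), Ak5 and Syt13. Tnc was closest to Sema5a at 0.43, where its own SD over the group means was 0.85. Acan was closest to Slc38a7 (0.21, own SD 0.42) and Has2 to Zcchc10 (0.29, own SD 0.45), so Tnc did not stand out relative to its spread. These are descriptions of group means that share libraries and depth.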
